A study of Drosophila melanogaster with 6 samples.

Results

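The chorion protein genes encode the structural proteins of the outer eggshell of the fly. Their 9 members here were Cp36, Cp38, Cp7Fa, Cp7Fb and Cp7Fc, which lie side by side on the X chromosome, and Cp18, Cp15, Cp19 and Cp16, which lie side by side on arm 3L. They were chosen by name, as the probe sets whose only gene symbol in the array annotation is 1 of these 9. Of the 9 genes, 7 had such a probe set, 1 each, and all 7 were among the 11261 probe sets tested. Cp7Fa and Cp7Fb had no such probe set, so the X-linked cluster is represented by 3 of its 5 genes and the third-chromosome cluster by all 4.

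Chorion proteins are secreted by the somatic follicle cells that surround the oocyte, after the vitelline membrane has been laid down and shortly before the egg is released. Before and during this synthesis the follicle cells copy both chorion gene clusters many times over, firing local replication origins again and again, and the third-chromosome cluster is amplified more than the X-linked one. Within this short period the genes are used in turn: Cp36 and Cp38 are early genes, and Cp15 and Cp18 are late genes.

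The RNA came from whole bodies of adult females of the w1118 strain, which carry a mutation in the white gene, kept in normal oxygen. One group was on a high-fat diet (HFD), food with coconut oil at 20% weight per volume. The other was on the regular diet (RD), Jazz-Mix food. Flies went onto their diet at day 3 to 5 and stayed on it for 1 week, which gave an age of 10 to 12 days, and 3 arrays were made per diet. The labels do not state whether arrays of 1 diet came from separate cultures of flies. The p-values therefore cover the spread between these arrays, which may be technical. In whole-body RNA, fewer follicles at the chorion stage and less chorion RNA per follicle cell cannot be told apart.

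The arrays gave MAS5 signals, linear intensities per probe set, and are named by the replicate number of their titles. The 6 arrays had 2% trimmed means between 327 and 343, and the number of arrays limits the precision of every value. Female yolk protein RNA was bright on all arrays, while the 6 genes tested of 15 listed for male reproduction summed to 233 to 299 on the HFD arrays and 254 to 293 on the RD arrays, with no single signal above 81.9. None of these 6 passed the limma test between diets, nor did any at an unadjusted p under 0.05. The actin control, whose 3' and 5' ends are measured separately, gave a ratio of 3' to 5' signal, which depends on RNA length, of 9.29, 8.35 and 8.93 on HFD arrays 1 to 3, against 7.85, 4.90 and 5.69 on RD arrays 1 to 3. The diets did not overlap in this ratio, but they did in those of the GAPDH and eIF-4a controls and in the mean log2 ratio of the 3, which was 2.66, 2.49 and 2.63 on the HFD arrays and 2.52, 1.93 and 2.17 on the RD arrays.

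The comparison asks whether the chorion genes of adult females differed between a week of fatty food and a week of regular food. Of the 7 genes, 5 fell on HFD: Cp18, Cp16, Cp19 and Cp15 of the third-chromosome cluster and Cp7Fc of the X-linked cluster. The early X-linked genes Cp36 and Cp38 did not pass the test. No chorion gene rose, also at an unadjusted p under 0.05, where 6 of the 7 were lower. The share of all probe sets tested at that unadjusted cut was not counted, here or for the gene lists below. Over the array, 6.63% of the probe sets tested were called lower on HFD and 19.5% in either direction (limma, adjusted p under 0.05). For all 7 genes the 3 HFD arrays lay below the 3 RD arrays, as they did for 18.7% of all probe sets tested. The median log2 fold change, taken as HFD minus RD after adding 1 to each signal, was -0.73 over the 7 genes and 0.0083 over all probe sets tested.

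**Figure D1:**
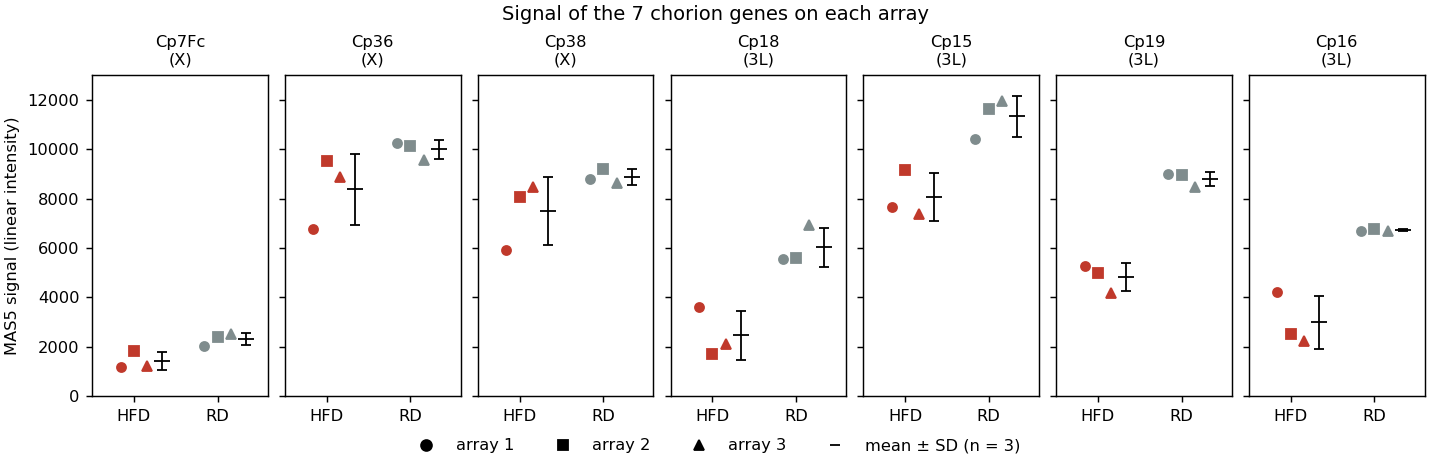
MAS5 signal (linear scale from 0) of each of the 7 chorion genes on the 3 HFD arrays (left, red) and the 3 RD arrays (right, grey), with marker shapes for the replicate number and bars for mean ± SD. All HFD points lie below all RD points of the same gene, and the gap between the nearest points is narrow for Cp36 and Cp38.

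In the third-chromosome cluster, the late gene Cp18 had signals of 3598, 1709 and 2102 on HFD arrays 1 to 3, against 5546, 5604 and 6938 on RD arrays 1 to 3. HFD array 1 was the highest of the HFD arrays and still lay below every RD array. The log2 fold change of Cp18 was -1.35 ± 0.24 (SE of the limma fit, adjusted p = 0.00857), a 2.55-fold fall.

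Cp16, the last gene of the row, had signals of 4219, 2511 and 2235 on the HFD arrays, against 6683, 6769 and 6707 on the RD arrays. The RD arrays were nearly alike, with an SD of 44.6, and the HFD arrays were spread, with an SD of 1075. Cp16 fell 2.34-fold (log2 fold change -1.23 ± 0.20, limma adjusted p = 0.00654).

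Cp19, which lies between Cp15 and Cp16, had signals of 5294, 4998 and 4188 on the HFD arrays, against 8999, 8960 and 8494 on the RD arrays. Both diets were tight, with an SD of 573 on HFD and 281 on RD. Cp19 fell 1.83-fold (-0.88 ± 0.083, limma adjusted p = 0.0016), and it was the chorion gene with the smallest adjusted p.

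Cp15, a late gene directly beside Cp18, had signals of 7656, 9167 and 7398 on the HFD arrays, against 10417, 11625 and 11972 on the RD arrays. It fell 1.41-fold (-0.49 ± 0.088, limma adjusted p = 0.00838). Its mean HFD signal was 71.2% of its RD mean, while that of its neighbour Cp18 was 41.0%. Array by array, the HFD signals were 65.2% to 80.8% of the RD mean for Cp15 and 28.3% to 59.7% for Cp18, so these 2 late genes of the same cluster did not overlap. A test of the difference between them was not run.

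In the X-linked cluster, Cp7Fc had signals of 1192, 1841 and 1236 on the HFD arrays, against 2050, 2387 and 2538 on the RD arrays. HFD array 2 came nearest to the RD arrays without reaching them. Cp7Fc fell 1.66-fold (-0.73 ± 0.16, limma adjusted p = 0.0187). Its call was lost without HFD array 1, HFD array 3, RD array 2 or RD array 3, with adjusted p of 0.0693, 0.0609, 0.0505 and 0.0653.

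Cp36, an early and major chorion protein, had signals of 6762, 9520 and 8888 on the HFD arrays, against 10283, 10157 and 9577 on the RD arrays. HFD array 2 lay just below the lowest RD array, and HFD array 1 lay far below the rest. The log2 fold change of Cp36 was -0.27 ± 0.11 (limma adjusted p = 0.136).

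Cp38, the early gene next to Cp36, had signals of 5939, 8071 and 8485 on the HFD arrays, against 8790, 9228 and 8626 on the RD arrays. Again HFD array 1 stood apart, and HFD array 3 nearly met the lowest RD array. The log2 fold change of Cp38 was -0.26 ± 0.12 (limma adjusted p = 0.165). Without HFD array 1 the log2 fold change was -0.12 for Cp36 and -0.10 for Cp38.

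The HFD arrays did not rank the 2 clusters alike. HFD array 1 was the lowest HFD array for all 3 X-linked genes, and the highest for 3 of the 4 third-chromosome genes, Cp18, Cp16 and Cp19. For Cp15, the remaining third-chromosome gene, HFD array 2 was the highest, as for the X-linked genes Cp7Fc and Cp36. Over all probe sets tested, HFD array 1 was the lowest HFD array for 52.7% and the highest for 21.5%. On HFD array 1 the 7 genes lay close together, between 51.3% and 67.6% of their RD means. On HFD array 2 they ranged from 28.3% for Cp18 to 95.2% for Cp36, and on HFD array 3 from 33.3% for Cp16 to 95.5% for Cp38.

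**Figure D2:**
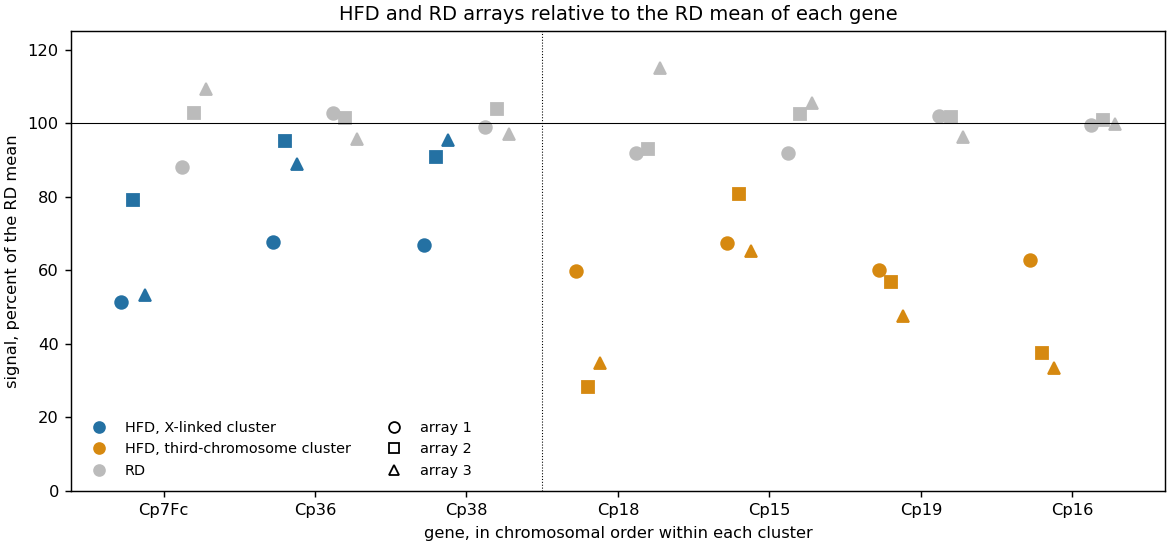
Signal of each array as a percentage of the RD mean of the same gene, for HFD arrays (coloured by cluster) and RD arrays (grey), with marker shapes for the replicate number. On HFD array 1 (circles) all 7 genes lie between 51.3% and 67.6%, while on HFD arrays 2 and 3 Cp36 and Cp38 lie at 88.8% to 95.5% and Cp18 and Cp16 at 28.3% to 37.4%.

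The clusters were set side by side as the mean log2 signal of their genes relative to the RD mean. The third-chromosome mean was -0.68, -1.09 and -1.20 on HFD arrays 1 to 3, against -0.053, -0.0063 and 0.059 on RD arrays 1 to 3. The X-linked mean was -0.70, -0.18 and -0.38 on the HFD arrays, against -0.05, 0.041 and 0.0094 on the RD arrays. Both means were lower on every HFD array than on any RD array, which follows from the same order in each of the 7 genes.

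The third-chromosome mean minus the X-linked mean was 0.024, -0.91 and -0.82 on HFD arrays 1 to 3, against -0.0025, -0.047 and 0.049 on RD arrays 1 to 3. HFD array 1 lay within the RD range, so the diets overlapped in this contrast, and the larger fall of the third-chromosome cluster was seen on HFD arrays 2 and 3 and not on HFD array 1. The mean contrast was -0.57 ± 0.51 on HFD and 0.00 ± 0.048 on RD (SD, n = 3 each), and -0.86, HFD minus RD, without HFD array 1. It was -0.45 to -0.73 with each gene left out in turn. No p-value is given, since the contrast is a score over genes proposed with earlier results known. Averaged over all 7 genes, the HFD arrays lay closer together, at -0.69, -0.70 and -0.85, against -0.052, 0.014 and 0.038 on the RD arrays.

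The genes differ in more than their cluster. The 2 early genes Cp36 and Cp38 are both X-linked and the late genes Cp15 and Cp18 are both on the third chromosome, so cluster and time of use cannot be told apart. Brightness differed between the genes too, within both clusters. Cp36 and Cp38 of the X-linked cluster and Cp15 and Cp19 of the third-chromosome cluster had RD means above 8000. The array maxima were 15306.5 to 16055.73. Of these 4 bright genes, 3 had the smallest falls. The X-linked gene Cp7Fc had an RD mean of 2325 and fell less than Cp18, Cp16 and Cp19. Among the 137 probe sets with an RD mean above 8000, 13.9% were called lower on HFD and the largest fall was -1.01 on the log2 scale. The part of signal brightness in the difference between the clusters was not tested.

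The genes next to each cluster, taken as the 3 on either side in the order of the Release 6 gene table, went in both directions. Beside the X-linked cluster, the germline gene otu, which is needed for oogenesis, followed Cp38 and fell by 0.23 on the log2 scale (limma adjusted p = 0.0408). Sptr, which encodes sepiapterin reductase, fell by 0.31 (adjusted p = 0.0452), Nrg, the cell adhesion protein neuroglian, rose by 0.33 (adjusted p = 0.0459), and CG12116 and CG33181 did not pass. The calls of otu, Sptr and Nrg were all lost without the filter (adjusted p = 0.0563, 0.0671 and 0.067), with eBayes without a trend (0.0982, 0.0667 and 0.0833), with the control 3'/5' covariate (0.0747, 0.493 and 0.616), and without HFD array 1 (0.109, 0.127 and 0.138), HFD array 2 (0.0948, 0.123 and 0.121) or RD array 3 (0.139, 0.14 and 0.134). Those of otu and Nrg were also lost without HFD array 3 (0.0905 and 0.0696), those of Sptr and Nrg without RD array 2 (0.123 and 0.111), and that of otu without RD array 1 (0.0816). Beside the third-chromosome cluster, Prm, which encodes the muscle protein paramyosin, followed Cp16 and rose.

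Prm had a signal of 1596 ± 190 on HFD and 812 ± 120 on RD (SD, n = 3 each), a log2 fold change of 0.98 ± 0.13 (limma adjusted p = 0.00316). Next in the row, Fhos, a formin of muscle, rose by 0.69 (adjusted p = 0.015), and CG13306 had a signal of 59.6 ± 5.15 on HFD and 26.2 ± 7.48 on RD. The RD mean of CG13306 lay below the filter level of 27.9, so it was tested only through its HFD signals. With the control 3'/5' covariate, Prm was at 0.77 (adjusted p = 0.0553) and Fhos at 0.47 (adjusted p = 0.262), and without RD array 3 Fhos had an adjusted p of 0.0518. On the other side, CG6511 and CG32022 did not pass. Immediate neighbours on the same arm thus went in opposite directions at the Cp16 end of the row. Of Act88F and Mhc, chosen as muscle markers, only Act88F had a probe set naming it alone. Act88F had a signal of 297 ± 104 on HFD and 110 ± 18.9 on RD (1.38, limma adjusted p = 0.00993). With the control 3'/5' covariate it was at 1.15 (adjusted p = 0.169). The part of muscle RNA in the values of Prm and Fhos was not tested. CG33223 and CG43965 had no probe set naming them alone.

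**Figure D3:**
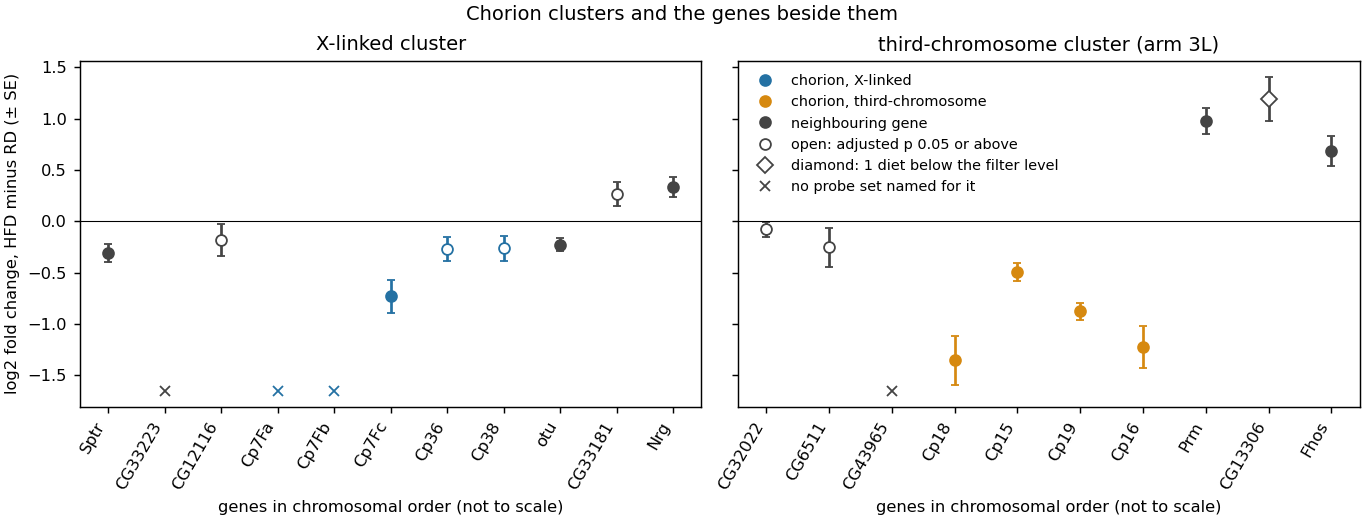
Log2 fold change, HFD minus RD, with the SE of the limma fit, for the chorion genes (coloured) and the 3 genes on either side (dark grey), in chromosomal order and not to scale. Filled points passed an adjusted p of 0.05, and crosses mark genes without a probe set naming them alone. The 4 third-chromosome chorion genes lie between -1.35 and -0.49, and Prm and Fhos beside them lie at 0.98 and 0.69. The diamond marks CG13306, whose RD mean was below the filter level.

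Other eggshell genes are made by the same follicle cells, and their lists were set beside the chorion genes by count and median. Of 8 vitelline membrane genes tested, of 11 listed, 6 fell and none rose (limma), where 6.63% of all probe sets tested were called lower. The median log2 fold change was -0.54, and at an unadjusted limma p under 0.05, 6 of the 8 genes were lower and 1 higher. These genes encode or assemble the inner eggshell layer, which is made before the chorion. Vm32E had a signal of 1894 ± 588 on HFD and 4009 ± 552 on RD (-1.12 ± 0.20, limma adjusted p = 0.00813). Vm26Ac was at -1.10 (adjusted p = 0.0184), and ndl, a protease of the eggshell that also acts in embryo patterning, was at -0.92 (adjusted p = 0.00423). Leaving out HFD array 2, RD array 2 or RD array 3 left 3 vitelline membrane genes called lower.

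Of 8 other eggshell genes, 3 were called lower and none higher (limma), where 6.63% of all probe sets tested were called lower. The median was -0.70, and at an unadjusted limma p under 0.05, 5 of the 8 genes were lower and 0 higher. Femcoat, which is needed to form the chorion, had a signal of 321 ± 71.8 on HFD and 736 ± 61.5 on RD (-1.22 ± 0.16, limma adjusted p = 0.00325). The gene dec-1, named dec in the current gene table, encodes a chorion assembly protein and fell by 0.66 (adjusted p = 0.0126). The third call was Mur11Da, with a signal of 27.7 ± 8.29 on HFD and 102 ± 27.0 on RD. Its HFD mean lay below the filter level of 27.9, so it was tested only through its RD signals, and its call is not read as a measured fall. With array weights the other eggshell genes called lower numbered 5, and with median centring 8. Over the array, these settings called 2597 and 4023 of 11261 probe sets lower, against 747 in the reported fit.

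HFD array 1 was the highest HFD array for 6 of the 8 vitelline membrane genes, Vm32E and Vm26Ac among them, as for Cp18, Cp16 and Cp19, against 21.5% of all probe sets tested. Of the 8 other eggshell genes it was the lowest for 4, yellow-g, yellow-g2, Muc4B and Pxt, where it was the lowest for 52.7% of all probe sets tested. These 4 genes were named after their values were seen. The gene yellow-g2 had signals of 544, 1187 and 1178 on HFD arrays 1 to 3, against 1472, 1613 and 1443 on the RD arrays (limma adjusted p = 0.0983). Its neighbour and relative yellow-g had 1096, 2189 and 1940 on the HFD arrays, against 2489, 2294 and 2080 on the RD arrays (adjusted p = 0.197).

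**Figure D4:**
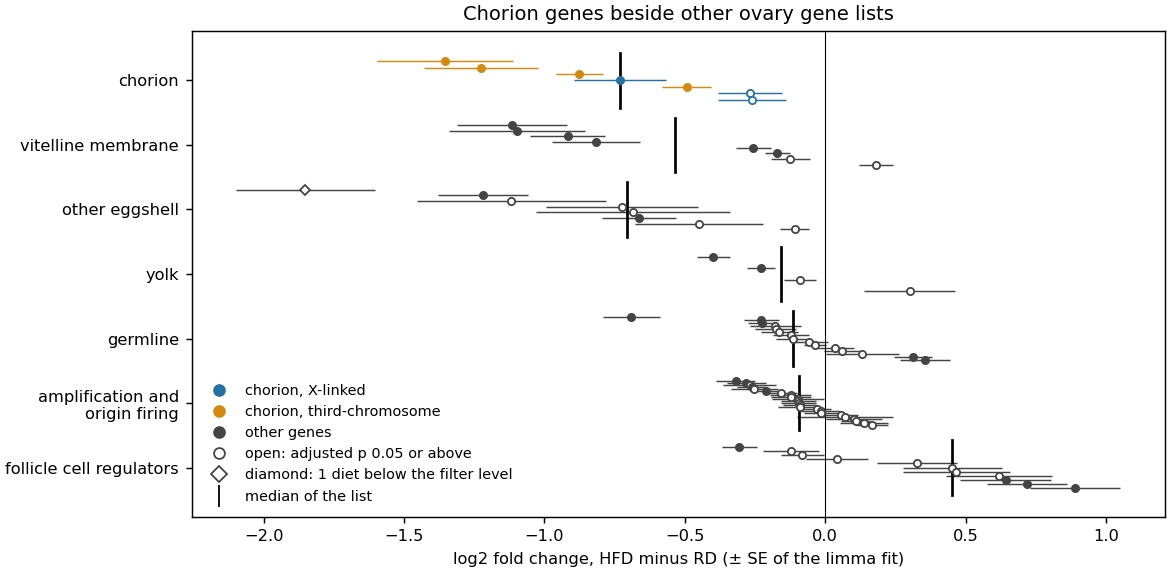
Log2 fold change, HFD minus RD, with the SE of the limma fit, of each tested gene in 7 lists, with filled points for an adjusted p under 0.05, a diamond for Mur11Da, whose HFD mean was below the filter level, and a black bar for the list median. The medians of the chorion, vitelline membrane and other eggshell lists are -0.73, -0.54 and -0.70, and those of the yolk, germline, amplification and follicle cell regulator lists are -0.16, -0.11, -0.095 and 0.45.

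Yolk genes were listed as genes of egg production, and germline genes as genes of another part of the ovary. Of the 4 yolk genes, 2 were called lower and 0 higher (limma), where 6.63% of all probe sets tested were called lower. Yp2 fell by 0.40 on the log2 scale (limma adjusted p = 0.00401) and Yp3 by 0.23 (adjusted p = 0.0173). The yolk receptor gene yl was at 0.30 (adjusted p = 0.224), and Yp1 was at -0.089 (adjusted p = 0.299). Yp1 was at 0.014 after quantile normalization and at 0.028 with array weights. Leaving out RD array 2 or RD array 3 left 1 yolk gene called lower. Of 15 germline genes, 3 fell and 2 rose (limma), where 6.63% of all probe sets tested were called lower and 12.9% higher. The germline median was -0.11. The summed signal of the 15 genes was 26518 to 28868 on the HFD arrays and 29626 to 29831 on the RD arrays.

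The oocyte gene osk had a signal of 7137 ± 146 on HFD and 7319 ± 27.4 on RD (limma adjusted p = 0.514), and orb, which controls translation in the oocyte, had 3250 ± 144 on HFD and 3178 ± 261 on RD (adjusted p = 0.743). The probe set named for vas was dim on all arrays. The germline gene bam fell by 0.69 (adjusted p = 0.00432), stau rose by 0.36 (adjusted p = 0.027) and grk rose by 0.31 (adjusted p = 0.0173). Leaving out HFD array 1, HFD array 2 or RD array 3 left 1 germline gene called lower. Leaving out HFD array 2, HFD array 3 or RD array 3 left 0 called higher, and leaving out HFD array 1 or RD array 2 left 1. With median centring 10 were lower and 0 higher, stau and grk having lost their calls (adjusted p = 0.231 and 0.329), and with array weights 8 were lower and 2 higher. Over the array, median centring called 4023 of 11261 probe sets lower and 972 higher, and array weights called 2597 lower and 3532 higher.

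The machinery that amplifies the chorion clusters was listed as 29 genes of origin binding, helicase loading and their regulators, of which 23 were tested. Of these 23, 4 fell and none rose (limma), where 6.63% of all probe sets tested were called lower. The median was -0.095, and at an unadjusted limma p under 0.05, 7 of the 23 genes were lower and 1 higher. CycE, the cyclin that drives entry into DNA synthesis, fell by 0.32 (limma adjusted p = 0.0162), SuUR, which slows replication forks, by 0.28 (adjusted p = 0.0276), and chif, the partner of the Cdc7 kinase and needed for chorion amplification, by 0.26 (adjusted p = 0.0144). The 4 Orc subunits tested did not pass, with the largest shift in Orc4 at -0.25 (adjusted p = 0.0692). The count called lower was 16 with median centring and 8 with array weights, where 4023 and 2597 of 11261 probe sets were called lower. It was 1 without HFD array 2, 2 without HFD array 1 or RD array 2, and 0 without RD array 3. These genes are also used in other dividing cells of the body, and gene copy number was not measured.

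Among 11 tested regulators known from follicle cells, 3 rose and 1 fell, with a median of 0.45, where 12.9% of all probe sets tested were called higher. The homeobox gene ct was at 0.89 (limma adjusted p = 0.00873), mirr, which patterns the follicle cells, at 0.72 (adjusted p = 0.0122), Cf2, a zinc-finger factor that binds chorion promoters, at 0.64 (adjusted p = 0.0287), and the nuclear receptor gene ftz-f1 at -0.31 (adjusted p = 0.0142). Most of these regulators are also expressed outside the ovary, and in the same samples the neuron gene elav had a signal of 398 ± 39.0 on HFD and 257 ± 60.1 on RD (adjusted p = 0.0289). The part of other tissues in these values was not tested. The count of regulators called higher was 6 without RD array 1, 7 with array weights and 1 with the filter at the 60th percentile. Over the array, these settings called 1867 of 11261, 3532 of 11261 and 788 of 7508 probe sets higher. The call of ftz-f1 was lost without HFD array 2 or RD array 3. The call of Cf2 was lost without HFD array 1, 2 or 3 or RD array 2 or 3 (adjusted p = 0.0502, 0.083, 0.0777, 0.085 and 0.1). With the covariate described below for the chorion genes, 0 were called higher and 3 of the 11 had an unadjusted p under 0.05 in either direction, with ct at 0.56 (adjusted p = 0.164), mirr at 0.40 (adjusted p = 0.211) and Cf2 at 0.34 (adjusted p = 0.441). The call of ftz-f1 was kept with the covariate, at -0.41 (limma adjusted p = 0.043). With the same covariate elav was at 0.28 (limma adjusted p = 0.46). Of the list for ovulation and follicle rupture, Octbeta2R alone was tested, and without the covariate it was at 0.29 (adjusted p = 0.295).

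The 5 genes whose signal followed the mean of the 7 chorion genes most closely over the 6 arrays were CG34166, Jon25Bi, Gnmt, CG3597 and CG5885, with Pearson's r of 0.996, 0.995, 0.994, 0.992 and 0.992. The digestive protease gene Jon25Bi and Gnmt, a methyltransferase of the fat body, are not eggshell genes. The measure is common on these arrays, since 384 of 8681 genes (4.42%) had an r above 0.9, and the 6 arrays fall into 2 diets. CG5885 had the smallest change of the 5, with a signal of 2768 ± 35.9 on HFD and 3051 ± 11.8 on RD.

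Beside the arrays left out above, 2 other choices changed chorion calls. When the 3' to 5' ratios of the GAPDH, eIF-4a and actin controls (their mean log2) entered the model as a covariate, 1 of the 7 genes fell, Cp19 (limma adjusted p = 0.0215). In that fit 4 of the 7 had an unadjusted p under 0.05, a cut at which the share of all probe sets was not counted. Cp18 was then at -1.49 (adjusted p = 0.0818), Cp16 at -1.31 (adjusted p = 0.0754), Cp15 at -0.33 (adjusted p = 0.171) and Cp7Fc at -0.46 (adjusted p = 0.318). Over the whole array 272 probe sets passed in place of 2196, and 55 of the 272 were lower. The same model called none of the vitelline membrane, yolk, germline and amplification genes, of which 6, 2, 3 and 3 had an unadjusted p under 0.05, and 1 other eggshell gene, Femcoat (adjusted p = 0.0418). After each array was centred on its median, which moved the median of all probe sets tested to -0.20, all 7 genes fell, Cp36 and Cp38 included (adjusted p = 0.0127 and 0.0176). That centring called 4023 of the 11261 probe sets tested lower, against 747 in the reported fit.

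**Figure D5:**
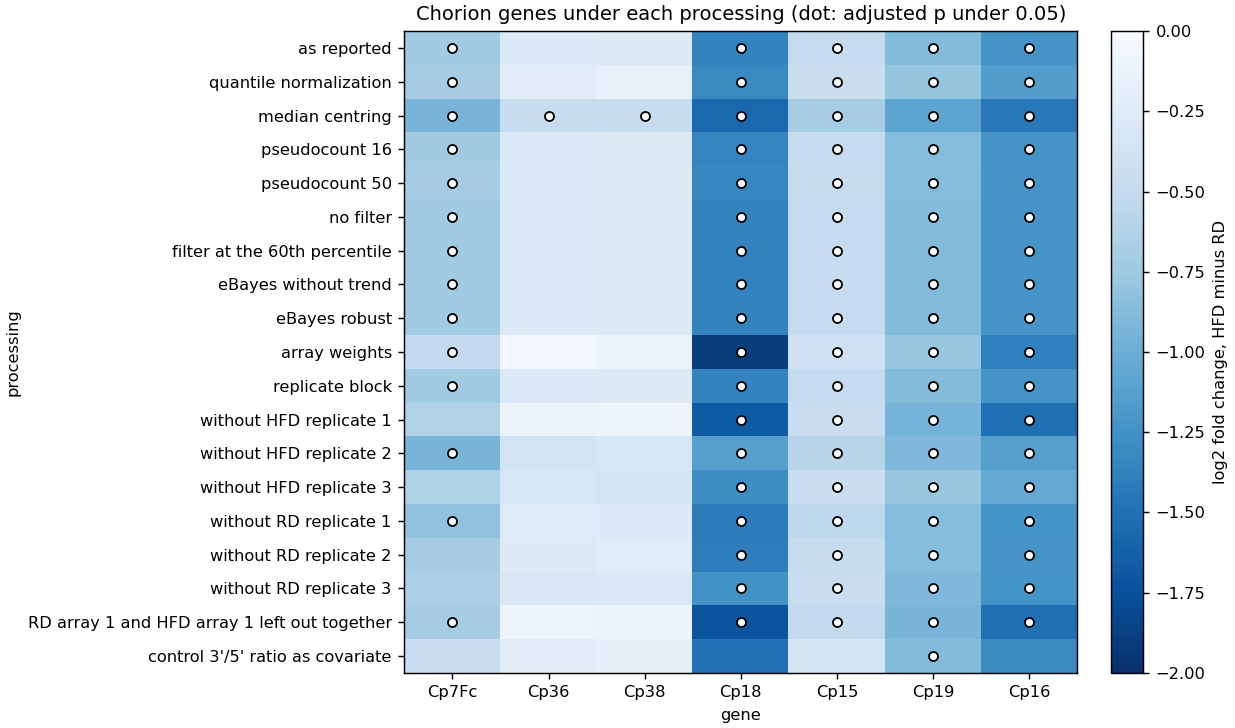
Log2 fold change, HFD minus RD, of the 7 chorion genes (columns) under the reported processing and each alternative (rows), with darker blue for a larger fall and a dot where the adjusted p was under 0.05. Cp19 carries a dot under all 18 alternatives shown, Cp18, Cp16 and Cp15 under 17, Cp7Fc under 13, and Cp36 and Cp38 under 1.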

How the data were processed

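The authors deposited 1 linear intensity per probe set and array. Per the submitters' processing notes these are MAS5 signals, with the version not given in the sources used here. The members, gene lists and alternatives were chosen with earlier results of these data known. Of 18952 probe sets, 183 were controls and were not tested. The signals were taken to log2 after adding 1 and were not normalized again. A probe set was tested if its mean over the 6 arrays exceeded the 40th percentile (4.86 on the log2 scale, a signal of about 27.9), which 11261 did. A linear model per probe set (limma 3.58.1, R 4.3.3; empirical Bayes variance with a trend on intensity; two-sided) gave HFD minus RD. P-values were adjusted by Benjamini-Hochberg over the 11261, with 0.05 as the threshold. Adding 1 understates the folds of dim genes. Apart from naming bright probe sets, levels of different probe sets were not compared.

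Gene names came from the array annotation, updated by gene ID through a table of Release 6 genes. Coordinates are left out because the build of the annotation is not stated. Sequences were not used here, so the promoter and protein descriptions that had been planned were not made. For a gene with several tested probe sets the one with the highest mean was taken. The text names all 9 members and up to 3 called genes of each list by size of change (where none passed, the 2 of smallest p). It also names the 3 neighbours on each side of a cluster, the 5 genes most like the members, and some of the fixed marker genes. The markers nSyb, Lsp2 and apolpp are not described. The fit was tested on simulated data for HFD against RD, with 200 probe sets of 11261 changed. It recovered 73% of those shifted by 0.5 and 100% of those shifted by 1 (log2), and 4.42% of its calls were false. The simulated noise was normal and independent, with a spread set by mean signal alone and equal in both diets. On the real arrays Cp16 had an SD of 1075 on HFD and 44.6 on RD, and 19.5% of probe sets were called. The simulated rates therefore need not hold for the real arrays. The alternatives were other normalization, added constants, filters, variance models, array weights, a replicate block, arrays left out, and a covariate from the 3' to 5' control ratios. Figures come from matplotlib 3.10.9 under Python 3.11.15.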

Additional observations from a re-analysis of the deposited data

Results flagged for a closer look

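Controls outside the comparison of fly genes differed with diet: the bioB probe sets, which detect a bacterial RNA spiked into the hybridisation, had a mean signal of 552, 399 and 396 on HFD arrays 1 to 3, against 276, 248 and 264 on RD arrays 1 to 3, a ratio of the HFD mean over the RD mean of 1.71. They were brightest on HFD array 1, where the third-chromosome mean minus the X-linked mean was 0.024. On RD arrays 1 to 3, where the bioB signals were dimmest, that contrast was -0.0025, -0.047 and 0.049. The part of the bioB controls in the chorion values was not tested.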

How the results depend on the processing

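All 7 chorion genes were lower on HFD under the 18 alternatives fitted. The number that fell was 1 with the control 3'/5' ratio as a covariate, 7 with median centring and 4 to 5 with 1 array left out. Over the array, 55 of 11261 probe sets were called lower with the covariate and 4023 with median centring. The chorion median was -0.94 with median centring, -0.51 with array weights, -0.46 with the covariate and -0.90 to -0.62 with 1 array left out. The contrast of the third-chromosome with the X-linked cluster stayed negative, at -0.88 with array weights, -0.72 with the covariate, -0.86 without RD array 1 and HFD array 1, and -0.86 to -0.40 with 1 array left out. Probe sets called over the array numbered 4995 with median centring, 1361 with the filter at the 60th percentile, 6129 with array weights, 272 with the covariate and 1008 to 2707 with 1 array left out. The genes of the other lists that were called numbered 50, 48 and 2 with median centring, array weights and the covariate, and 10 to 26 with 1 array left out. Signs turned for Yp1 (0.014 with quantile normalization, 0.028 with array weights), RpL32 (-0.16 with median centring), CG12116 (0.0082 with array weights, 0.18 with the covariate), CG6511 (0.018 without RD array 1 and HFD array 1), CG33181 (-0.028 with the covariate) and CG32022 (0.018 with the covariate), none of which passed the test there. The cause of these shifts was not tested. With the replicate number as a block, the same number of chorion genes fell, 5, and 2560 probe sets were called. Deviations of same-numbered arrays from their diet means had correlations of 0.072, 0.10 and 0.027 across probe sets, so the numbers were not taken to pair the arrays. The alternative of promoter windows was not run, and each chorion gene had 1 probe set, so averaging probe sets changes nothing. Whether bright signals limit the folds of Cp15, Cp36, Cp38 and Cp19 was not tested.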
